A study of Mus musculus with 21 samples.

Results

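The genes described here are 8 transcription factors that set or mark the phenotype of smooth muscle cells: Srf, Myocd, Klf2, Klf4, Klf5, Gata6, Mef2c and Tcf21. They were found by their gene symbols, and 20 of the 45101 probe sets on the array are annotated with 1 of these 8 symbols, out of 18194 genes named by a single symbol. The cultures were aortic smooth muscle cells of C57BL/6J mice (males, 10 to 12 weeks old) kept in DMEM/F12 with 10% fetal calf serum. All groups were fed 24 h before stimulation and received their stimulus in PBS, so the PBS group is the control for the vehicle. An antibody against the lymphotoxin beta receptor (anti-LTBR, 10 µg/ml), tumour necrosis factor alpha (TNF, 1 ng/ml) or both at these doses were added. At 24 h there were 4 arrays each for PBS, anti-LTBR and TNF and 3 arrays for both agonists. The 2 h and 6 h times have a single array for PBS, for anti-LTBR and for TNF. The labels give no genetic change in any group and leave unsaid whether the arrays of a group stand for different animals or cultures. The p-values therefore cover the spread among these arrays alone. In fits with the array number as a block (below) they cover only the spread left after differences between numbers. The labels do not settle whether either spread is technical.

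In textbook accounts SRF, the serum response factor, binds CArG boxes in the promoters of contractile genes, and myocardin (Myocd), which is found in smooth and cardiac muscle, is the coactivator that turns this binding into strong transcription. MEF2C, GATA6 and the Krüppel-like factors KLF2, KLF4 and KLF5 act on the same cells. KLF4 and KLF5 are known for opposing the contractile state, MEF2C is known for driving muscle genes and vascular development, and TCF21 is a factor of mesenchymal and adventitial cells that also marks modulated smooth muscle cells. TNF receptors and LTBR both signal through NF-kB.

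Arrays carry a number from 0 to 3 in their labels, and arrays of the same number deviated from their group means together at 24 h, so the 24 h results were fitted both without the number and with the number as a block. Each value is marked by its fit, and both are given where the block changes a call or a sign. The arrays numbered 0 stood apart from the others. On them the platelet endothelial adhesion molecule gene Pecam1 read 4438 to 5653, against 40.3 to 375.5 on the 12 other 24 h arrays. The summed signal of 18 endothelial markers was 25008 to 26302 against 3264 to 6784, with 16 to 17 against 4 to 11 of them above the median of their own array. Of these markers, Cdh5 had means of 1376 on number 0 and 236, 109 and 107 on numbers 1 to 3. Kdr did not follow, with means of 223, 223, 272 and 304 in the same order. Myh11, the smooth muscle myosin heavy chain and the most specific contractile marker, read 111 to 152 on the arrays numbered 0 and 529 to 3338 on the others. Acta2, smooth muscle actin, read 16442 to 19662 on all 15 arrays. The arrays numbered 3 differed in another list. The summed signal of 10 macrophage and monocyte markers was 3334 to 4598 on them, against 1212 to 2169 on the other 24 h arrays. All 2 h and 6 h arrays are numbered 0, and the group with both agonists has none, so a mean of that group differs from the others by this number as well. In bulk cultures, fewer cells of a type and less RNA per cell cannot be told apart.

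Mef2c was lower in treated cultures in every pair of arrays on the probe set with the highest signal. On that probe set it fell further with both agonists than with TNF alone when the number was a block. Of its 5 probe sets 2 passed in that comparison, and the call was lost without some single arrays. With all arrays in the fit, none of the other 7 genes passed the test with either agonist alone. Klf4 passed with TNF when the arrays numbered 0 were left out and the number was a block (0.22 ± 0.05, limma adjusted p = 0.0390). The share of all genes called with those arrays left out is not given here. Without the block, 0 of the 8 genes passed the test in any of 7 comparisons, by limma at an adjusted p under 0.05. Across all 12446 genes tested, that fit called 0.129% with anti-LTBR, 0.337% with TNF and 2.46% with both agonists against PBS (1.82% higher and 0.635% lower). It called 0.0482% between both agonists and TNF, 0.362% between both agonists and anti-LTBR, 0.0161% between TNF and anti-LTBR and 0 genes for the interaction. Before adjustment, 2 of the 8 were under 0.05 with both agonists against PBS, Mef2c and Srf, and 0 in the other 6 comparisons. The share of all genes under 0.05 before adjustment is not given here, so these counts have no background beside them. With the block, 1 of 8 was called with anti-LTBR, 1 with TNF and 2 with both agonists, where the same fit called 4.76%, 5.94% and 19.5% of all genes. The genes called lower were 2.21%, 2.88% and 10.4% of all, in the same order, and those called higher 2.55%, 3.06% and 9.1%. The members' median log2 change with both agonists was -0.07 with the block, beside 0.00 over all genes. Mef2c was at the low end of the 8 genes in that comparison. Klf5 was at the high end on the probe set that stood for it, while its other tested probe set was at -0.33.

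**Figure D1:**
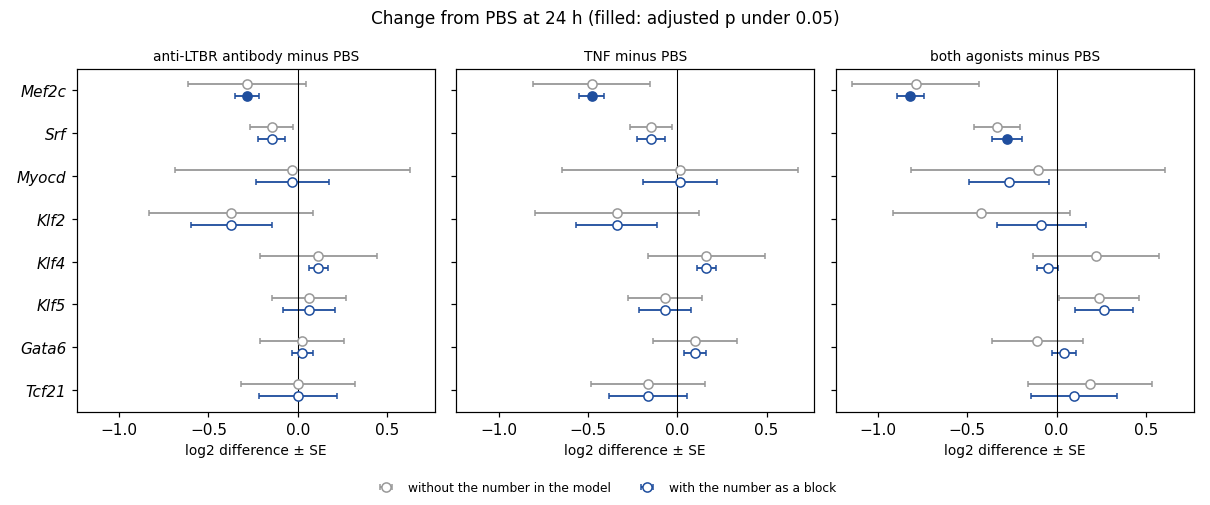
Log2 difference from PBS at 24 h with its standard error for the 8 genes (rows) with anti-LTBR, TNF and both agonists (panels), from limma without (grey) and with (blue) the array number as a block; filled points have an adjusted p under 0.05. Mef2c is filled in all 3 panels with the block, Srf with both agonists only, and no grey point is filled.

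Mef2c encodes a MADS-box factor of the myocyte enhancer factor family that binds A/T-rich MEF2 sites in muscle and vascular genes. Its probe set with the highest signal (1424852_at) read 1081, 915, 1952 and 1093 on the PBS arrays numbered 0 to 3. With anti-LTBR it read 954, 638, 1583 and 992 in the same order. With TNF it read 830, 596, 1285 and 869. With both agonists it read 444, 1080 and 692 on the arrays numbered 1 to 3. The array numbered 2 was the highest and the array numbered 1 the lowest of every group, and the groups overlapped. Within each number the treated array was below PBS in 4 of 4 pairs with anti-LTBR, 4 of 4 with TNF and 3 of 3 with both agonists. The share of all genes below PBS in every pair is not given here, so these counts have no background beside them.

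Group means for Mef2c followed the order PBS (1260 ± 468, SD, n = 4), anti-LTBR (1041 ± 394, n = 4), TNF (895 ± 287, n = 4) and both agonists (739 ± 320, n = 3). Without the block the change with both agonists was -0.79 ± 0.35 (log2, SE), with an adjusted p of 0.407 by limma. Numbers held 69.4% of the variance of this probe set and treatment groups 28.3%. With the number as a block, limma gave -0.28 ± 0.07 for anti-LTBR (adjusted p = 0.0308), which is 1.22-fold lower. The same fit gave -0.48 ± 0.07 for TNF (adjusted p = 0.000943), 1.39-fold lower. It gave -0.82 ± 0.08 for both agonists (adjusted p = 5.33e-06), 1.76-fold lower.

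Between treated groups, Mef2c was 1.27-fold lower with both agonists than with TNF in the fit with the block (-0.34 ± 0.08 on the log2 scale, limma adjusted p = 0.0160), a comparison in which 6.77% of all genes were called and 3.31% were called lower. Against anti-LTBR it was 1.45-fold lower (-0.54 ± 0.08, adjusted p = 0.00108), where 5.63% of all genes were called and 2.85% were called lower. TNF and anti-LTBR, the middle neighbours in the order, differed by -0.20 ± 0.07 and did not pass the test (adjusted p = 0.267), which 0.731% of all genes did. The interaction, which is the change with both agonists minus the sum of the separate changes, was -0.06 ± 0.10 (adjusted p = 0.881), and 0.0161% of all genes were called for it. These comparisons share the PBS or treated arrays with each other. The TNF, both-agonist and both-against-anti-LTBR calls of Mef2c held when each of the 15 arrays was left out in turn with the block. The anti-LTBR call did not: it was lost without the PBS arrays numbered 1 (-0.22) or 2 (-0.26) and without each anti-LTBR array (-0.24 to -0.30). With all arrays numbered 0 left out, Mef2c was at -0.84 with both agonists (adjusted p = 3.5e-05), -0.51 with TNF (0.00451) and -0.32 with anti-LTBR (0.0777). The call against TNF was lost without the TNF array numbered 1 (-0.34) and without the both-agonist arrays numbered 1 (-0.30) or 2 (-0.35).

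All 5 Mef2c probe sets were above the median of their array in every 24 h sample. With both agonists, each of the 5 was below the PBS array of its number in all 15 of 15 pair values, from -0.57 to -1.42 on the log2 scale. These values read 1 gene on the same arrays and are not separate observations. In a limma fit of all passing probe sets with the block, all 5 fell, from -0.58 ± 0.15 (1451507_at, adjusted p = 0.0154) to -1.04 ± 0.12 (1451506_at, adjusted p = 4e-05), where 8.64% of all probe sets fell. On 1451506_at the both-agonist arrays numbered 1 to 3 read 287, 770 and 515, and the PBS arrays numbered 0 to 3 read 945, 786, 1447 and 998. On 1421027_a_at the both-agonist arrays read 303, 684 and 556 and the PBS arrays 1013, 720, 1165 and 944. On these 2 of the 5 probe sets the groups did not overlap, which happened downward for 4.76% of all probe sets tested.

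With TNF the 5 Mef2c probe sets were below PBS in 20 of 20 pair values, from -0.01 to -0.86, which again read 1 gene on the same arrays. In the fit with the block 2 of the 5 fell, as 1.98% of all probe sets did. Those were 1424852_at (adjusted p = 0.00119) and 1451507_at (-0.58 ± 0.13, adjusted p = 0.0246), by limma over all passing probe sets. With anti-LTBR 18 of 20 pair values were below PBS, and 1 of the 5 probe sets fell, 1424852_at (adjusted p = 0.0405), beside 1.39% of all probe sets. The probe sets did not have the same pattern between treatments: 1451507_at read 399 ± 101 with TNF (SD, n = 4) and 415 ± 102 with both agonists (n = 3), a difference of 0.00 ± 0.15 with the block. The 2 that passed between both agonists and TNF were 1451506_at (-0.71 ± 0.12, adjusted p = 0.00449) and 1424852_at (adjusted p = 0.0210), both lower with both agonists, as were 2.46% of all probe sets. The annotation used here does not say which Mef2c transcript each probe set reads.

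**Figure D2:**
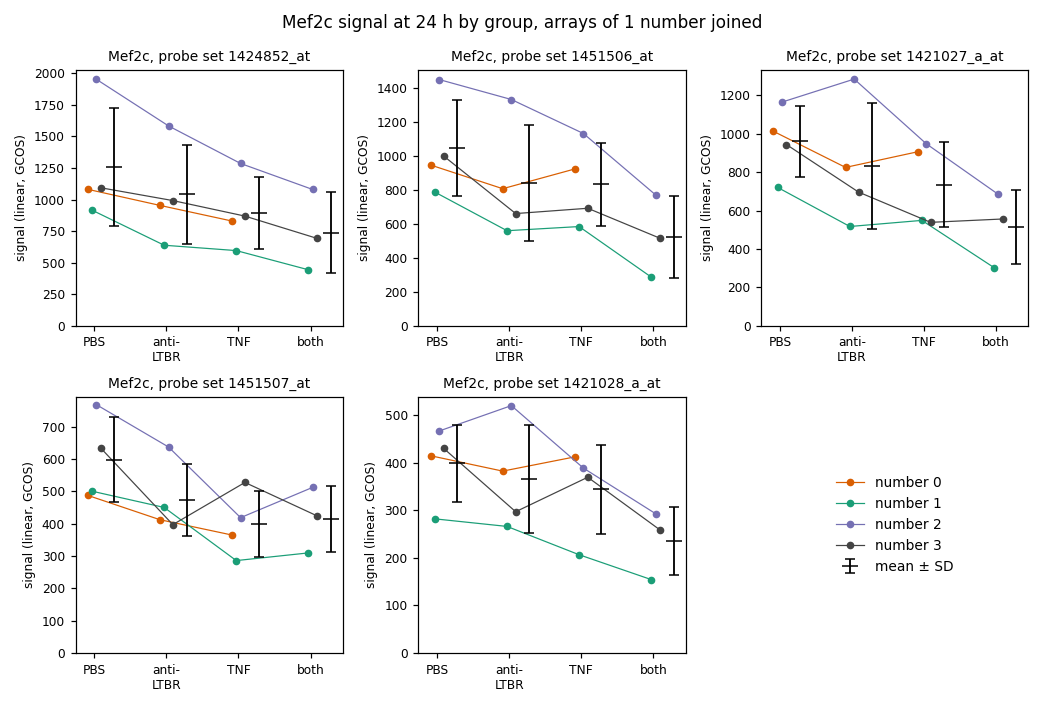
Signal (linear scale, each axis from 0) of the 5 Mef2c probe sets at 24 h in the 4 groups; coloured lines join arrays of the same number, and black bars give the group mean ± SD. Every line that reaches both agonists ends lower there than at PBS, and the number 0 line has no array with both agonists.

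At the early times, where no test is possible with 1 array per group, Mef2c was lower with TNF on all 5 probe sets. At 2 h the log2 differences from PBS ran from -0.22 to -0.56, and at 6 h from -0.64 to -0.97. The probe set 1424852_at read 1076 with PBS and 799 with TNF at 2 h, then 1195 with PBS and 604 with TNF at 6 h. At 24 h in the same numbered series it read 1081 and 830. At 6 h, 0.763% to 2.47% of the probe sets compared had a lower difference than the Mef2c probe sets. With anti-LTBR the differences lay between -0.16 and 0.14 at 2 h and between -0.36 and 0.03 at 6 h. On the arrays numbered 0, the difference with TNF was thus larger at 6 h than at 2 h or 24 h on each of the 5 probe sets, without replicates to say by how much.

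**Figure D3:**
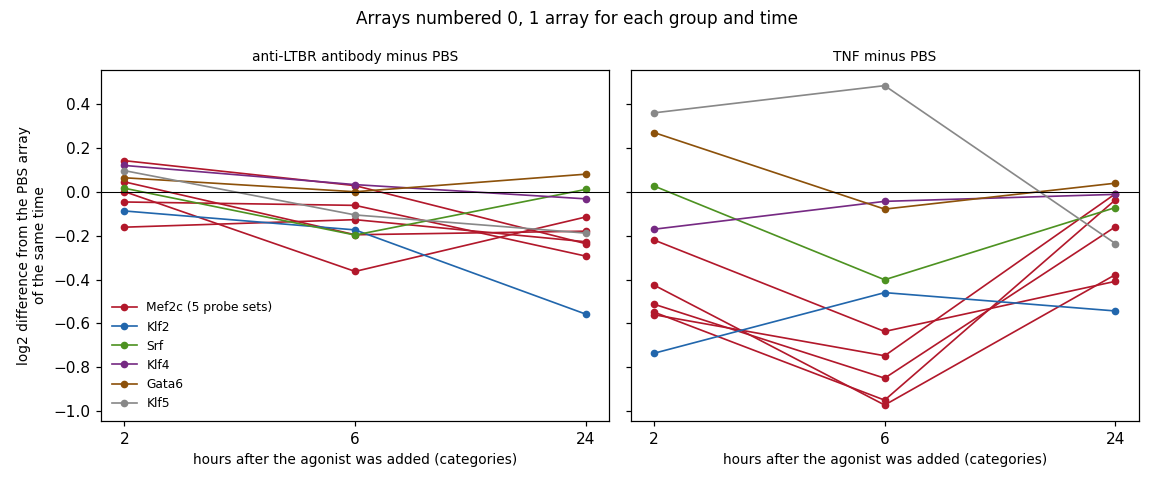
Log2 difference from the PBS array of the same time at 2, 6 and 24 h (categories, not to scale) on the arrays numbered 0, with anti-LTBR (left) and TNF (right); each line is 1 probe set and each point 1 treated array against 1 PBS array. The 5 Mef2c lines lie at -0.64 to -0.97 at 6 h with TNF and at -0.36 to 0.03 with anti-LTBR.

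Of the 20 member probe sets, 0 differed by more than 2-fold in either treatment at 2 h or 6 h while above the array median. That fold was passed upward by 1.32% and downward by 0.712% of named probe sets with TNF at 2 h, and by 1.85% and 0.719% at 6 h. With anti-LTBR the shares were 0.454% and 0.546% at 2 h and 0.677% and 0.455% at 6 h. The next lowest value after Mef2c was that of Klf2 with TNF at 2 h, at -0.74.

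Srf encodes the serum response factor itself. Its promoter is shown because it holds the element that SRF binds. RefSeq's GRCm38.p6 window for Srf, 250 bases before to 50 after the start, matched the CArG box 2 times, at 82 to 73 and 62 to 53 bases before the start. The stretch from 125 to 26 bases before the start (chr17:46556188-46556287, minus strand, 5′ to 3′) has both boxes in capitals:
Srf: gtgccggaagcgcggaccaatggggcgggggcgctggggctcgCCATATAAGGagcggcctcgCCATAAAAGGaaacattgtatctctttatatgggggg
A CArG box occurred on either strand in 1.63% of 32851 promoter windows of this length. A match is a description of the letters and not of binding.

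The Srf probe set with the higher signal (1418255_s_at) read 915, 816, 981 and 738 on the PBS arrays numbered 0 to 3. It read 923, 674, 741 and 779 with anti-LTBR and 871, 672, 790 and 775 with TNF. With both agonists the arrays numbered 1 to 3 read 644, 753 and 643, each below its PBS partner, and the groups overlapped. Without the block the change with both agonists was -0.33 ± 0.13 (limma adjusted p = 0.285). With the block Srf fell by 0.28 ± 0.09 on the log2 scale (adjusted p = 0.0352), or 1.21-fold. That call was lost when the PBS array numbered 1 (-0.24) or 2 (-0.21) or any of the both-agonist arrays (-0.25 to -0.30) was left out, and when arrays were scaled to equal medians. The other Srf probe set, 1418256_at, did not follow. It read 368, 267, 428 and 347 with PBS and 345, 286 and 403 with both agonists, and its change with both agonists was 0.02 ± 0.17 (adjusted p = 0.961). The ending _s_at marks probes that several transcripts share, and 1418256_at has no such mark. At 6 h with TNF both Srf probe sets were lower than PBS, by -0.40 and -0.22, and at 2 h they were at 0.03 and -0.08.

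Myocd, the coactivator of SRF, was near the lower limit of the array. Its probe set 1425978_at was above the array median on 8 of 15 arrays at 24 h, those numbered 2 and 3, and 1425808_a_at read 4.1 to 21.5 and was above it on none. On 1425978_at the PBS arrays numbered 0 to 3 read 51.8, 47.8, 170.7 and 190.8. With both agonists the arrays numbered 1 to 3 read 27.5, 134.8 and 169.6, each below its PBS partner. The change with both agonists was -0.27 ± 0.23 with the block (limma adjusted p = 0.470) and -0.11 ± 0.71 without it. The changes with anti-LTBR (-0.03 ± 0.20) and TNF (0.02 ± 0.20) had no common sign over the pairs, 2 of 4 being higher in each. The number held 93.9% of the variance of Myocd and the treatment 0.244%. Its means on the arrays numbered 0 to 3 were 67.6, 36.8, 172 and 167. Those of Myh11 were 138, 638, 2626 and 2151, so both were higher on numbers 2 and 3 than on 0 and 1, while from number 0 to 1 they went opposite ways.

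Klf2 encodes a Krüppel-like factor best known as a flow-induced gene of endothelial cells. Its promoter is shown because its window holds a match to the site of the MEF2 family, to which Mef2c belongs. The match lies 118 to 109 bases before the start. The stretch from 160 to 61 bases before the start (GRCm38.p6, chr8:72318902-72319001, plus strand, 5′ to 3′, from RefSeq) has it in capitals:
Klf2: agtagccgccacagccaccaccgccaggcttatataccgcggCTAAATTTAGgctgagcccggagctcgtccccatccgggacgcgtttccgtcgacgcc
A MEF2 site occurred on either strand in 3.19% of the 32851 windows. Of the 8 genes, 5 had windows in the RefSeq table, 7 windows in all. The windows of Klf4, Tcf21 and Mef2c (3 starts) matched neither the CArG box nor the MEF2 site, and none of the 7 matched the NF-kB (kappaB) site, which occurred in 8.46% of all windows. No match says only that these letters are not in these 300 bases. Gata6, Klf5 and Myocd had no entry.

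The single Klf2 probe set (1448890_at) read 611, 280, 212 and 148 on the PBS arrays numbered 0 to 3. With anti-LTBR it read 412, 199, 186 and 120, below PBS in 4 of 4 pairs. With TNF it read 416, 218, 103 and 216, below PBS in 3 of 4 pairs. With both agonists it read 196, 158 and 258 on the arrays numbered 1 to 3, with number 3 above its PBS partner. None of the changes passed the test with or without the block: -0.37 ± 0.23 with anti-LTBR (limma adjusted p = 0.417 with the block), -0.34 ± 0.23 with TNF (0.463) and -0.09 ± 0.25 with both agonists (0.863). Without the block the last value was -0.42 ± 0.50, the group with both agonists having no array numbered 0. The arrays numbered 0 had the highest Klf2 of every group in which they occur, 412 to 611 against 103 to 280 on the other numbers. The summed signal of the endothelial markers was high on those same arrays, though Kdr was not. The part of these markers in the Klf2 level was not tested. At 2 h Klf2 read 577 with PBS, 543 with anti-LTBR and 342 with TNF, and at 6 h it read 589, 521 and 425. The TNF differences were -0.74 at 2 h, below which lay 1.58% of the probe sets compared, and -0.46 at 6 h.

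Klf4 encodes the factor that represses contractile genes when smooth muscle cells are modulated. Its probe set 1417394_at read 2059, 4309, 3389 and 4181 on the PBS arrays numbered 0 to 3. It read 2015, 4887, 3950 and 4455 with anti-LTBR and 2044, 5070, 4102 and 4662 with TNF. With both agonists it read 4575, 3163 and 4097 on the arrays numbered 1 to 3. On the arrays numbered 1 to 3 TNF was the highest group and anti-LTBR the next each time, while PBS and both agonists changed places, and the array numbered 0 stayed within 2015 and 2059 in its 3 groups. Numbers held 95.1% of the variance. With the block TNF differed from PBS by 0.16 ± 0.05 (limma adjusted p = 0.0893), and both agonists differed from TNF by -0.21 ± 0.06 (adjusted p = 0.0425). Without the block the latter value was 0.06 ± 0.35 (adjusted p = 0.998), so the sign depended on the block. Against PBS, both agonists were at -0.05 ± 0.06 with the block and 0.22 ± 0.35 without it, again with opposite signs. Without the PBS array numbered 0, the TNF difference passed the test (0.22, adjusted p = 0.0263). The call between both agonists and TNF was lost in 10 of 15 fits that left out an array: without the PBS array numbered 3 (-0.21), the anti-LTBR arrays numbered 0, 1 and 3 (-0.21), each of the TNF arrays numbered 1, 2 and 3 (-0.18 to -0.22) and each both-agonist array (-0.15 to -0.26). The other Klf4 probe set, 1417395_at, had the opposite sign in that comparison (0.25 ± 0.11, adjusted p = 0.249). It read 1158 ± 131 with both agonists (SD, n = 3) and 880 ± 175 with PBS (n = 4), a change of 0.30 ± 0.11 with the block (adjusted p = 0.0922). The probe sets shared no sign between both agonists and TNF. On the arrays numbered 0, 1417394_at read 2778 with PBS and 2468 with TNF at 2 h, and 2284 and 2217 at 6 h.

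Klf5, a factor of proliferating smooth muscle cells, was low. Its tested probe sets read 92.4 to 191.5 (1451739_at) and 90.8 to 186.7 (1451021_a_at) at 24 h, and 1430255_at was above the array median on none of the arrays. With both agonists 1451739_at was above PBS in 3 of 3 pairs (0.26 ± 0.16 with the block, limma adjusted p = 0.294, and 0.24 ± 0.22 without it) and 1451021_a_at below PBS in 3 of 3 (-0.33 ± 0.17, adjusted p = 0.212 in the fit over probe sets). Their opposite signs leave no common direction for Klf5. At 6 h with TNF the differences were 0.49 (1451739_at) and 0.37 (1451021_a_at) without replicates. With anti-LTBR at 6 h they were -0.10 and 0.80 in the same order, so the probe sets had opposite signs there.

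Gata6 encodes a zinc finger factor of the quiescent, differentiated vascular smooth muscle cell. Its probe set 1425464_at read 3203, 1665, 2625 and 2188 with PBS on the arrays numbered 0 to 3. It read 3389, 1606, 2538 and 2383 with anti-LTBR, 3294, 1936, 2517 and 2515 with TNF, and 1786, 2340 and 2490 with both agonists. The array numbered 0 was the highest and the array numbered 1 the lowest wherever they occur, and numbers held 94.6% of the variance. With the block the change was 0.03 ± 0.06 with anti-LTBR, 0.10 ± 0.06 with TNF and 0.04 ± 0.07 with both agonists, with limma adjusted p from 0.412 to 0.874. Without the block the change with both agonists was -0.11 ± 0.25 (adjusted p = 0.951), so the sign depended on the block. On 1425463_at the arrays numbered 0 read 1434 to 1596, and the others 714 to 1030. The third probe set, 1443081_at, was above PBS in 4 of 4 pairs with TNF (0.38 ± 0.12, adjusted p = 0.109).

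Tcf21 was near the lower limit. Its probe set 1458887_at read 63.9 to 187.7 at 24 h and was above the array median on 7 of 15 arrays, and 1417447_at was above it on 1. The change in 1458887_at was 0.00 ± 0.22 with anti-LTBR, -0.16 ± 0.22 with TNF and 0.10 ± 0.24 with both agonists with the block, with limma adjusted p from 0.759 to 0.998. Without the block the last value was 0.19 ± 0.35. The array numbered 3 was the highest of each group. At 6 h 1458887_at read 84.7 with PBS and 139.1 with TNF, without replicates.

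**Figure D4:**
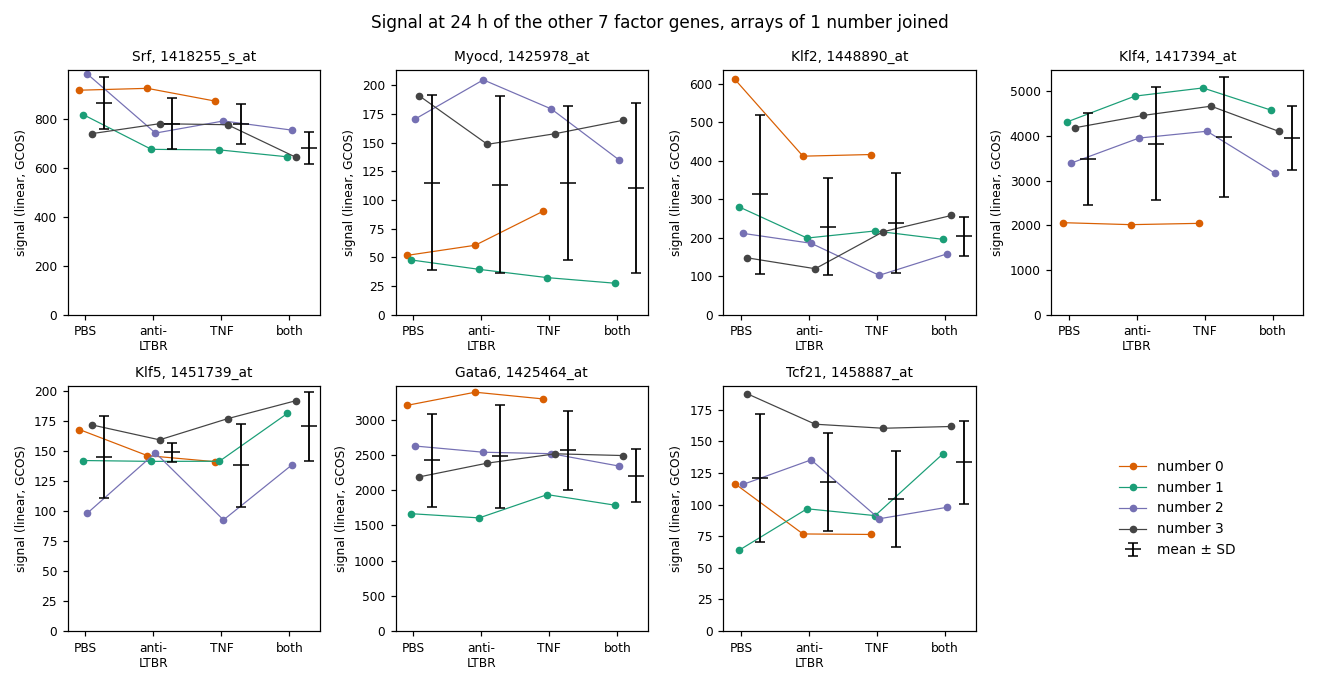
Signal (linear scale, each axis from 0) at 24 h of the probe set with the highest signal for Srf, Myocd, Klf2, Klf4, Klf5, Gata6 and Tcf21 in the 4 groups; coloured lines join arrays of 1 number and black bars give the mean ± SD. The lines of Klf4 do not cross between numbers, and those of numbers 2 and 3 cross for Srf, Myocd, Klf2 and Gata6. The number 0 line is highest for Klf2 and Gata6 and lowest for Klf4.

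Of 22 tested cofactors and regulators of SRF and myocardin, 1 passed without the block, Csrp1, a LIM protein that bridges SRF and GATA factors (-0.50 ± 0.09, limma adjusted p = 0.00655). With the block 8 of the 22 fell and 2 rose, with a list median of -0.03, where 10.4% of all genes fell and 9.1% rose. The 4 with the smallest adjusted p were Fhl2, a LIM-domain cofactor (-0.82 ± 0.07, adjusted p = 3.74e-06), Csrp1 (-0.44 ± 0.04), Hey2, a Notch effector (-0.79 ± 0.09), and Csrp2 (-0.46 ± 0.07). Fhl2 also fell with anti-LTBR (-0.52 ± 0.07, adjusted p = 0.000446) and with TNF (-0.48 ± 0.07, adjusted p = 0.000716). Notch3, a receptor of mural cells, fell with TNF (-0.44 ± 0.11, adjusted p = 0.0321). Smad3, a mediator of TGF-beta signals, rose with anti-LTBR (0.21 ± 0.05, adjusted p = 0.0333).

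Of 23 tested contractile targets of SRF, 4 fell with both agonists without the block, where 0.635% of all genes fell, and none rose. They were Vcl, encoding vinculin (-0.48 ± 0.07, limma adjusted p = 0.00252), Csrp1, which stands on both lists, Acta1, skeletal alpha actin (-1.76 ± 0.35, adjusted p = 0.0130), and Tagln, encoding SM22 (-0.30 ± 0.07, adjusted p = 0.0440). With the block 14 of 23 fell with both agonists, 13 with TNF and 7 with anti-LTBR, and 0 rose in each. Over all genes the shares that fell were 10.4%, 2.88% and 2.21% in the same order. The list medians were -0.40, -0.23 and -0.17 with the block, beside 0.00, -0.02 and -0.01 over all genes. Of 12 immediate early targets of SRF, Junb, an AP-1 subunit, rose without the block with TNF (0.98 ± 0.19, adjusted p = 0.0413) and with both agonists (1.41 ± 0.20, adjusted p = 0.00146). With the block 1 of the 12 rose and 5 fell with both agonists, beside 9.1% and 10.4% of all genes, among them Fos, another AP-1 subunit (-0.97 ± 0.10, adjusted p = 1.8e-05).

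Of 13 other Krüppel-like factors, 0 passed without the block. With it 1 rose and 3 fell with both agonists, against 9.1% and 10.4% of all genes. In that fit Klf10, a TGF-beta early response gene, rose with both agonists (0.75 ± 0.09, limma adjusted p = 3.55e-05) and with anti-LTBR (0.41 ± 0.08, adjusted p = 0.00866), and Klf15 (-1.93 ± 0.29), Klf3 (-0.27 ± 0.05) and Klf9 (-0.28 ± 0.06) fell with both agonists. Klf6 fell with TNF (-0.27 ± 0.07, adjusted p = 0.0445). The list median with both agonists and the block was -0.06. None of 8 other GATA and MEF2 family genes and GATA cofactors passed with either fit. Those with the largest changes with both agonists without the block were Gata2 (-0.61 ± 0.64) and Gata3 (-0.58 ± 1.29). The list median in that comparison was -0.077 without the block and -0.003 with it. On the arrays numbered 0, which that group lacks, the summed signal of the list was 9809 to 10704, against 7851 to 8853 on the others. The Mef2c paralogs Mef2a (-0.09 ± 0.04, adjusted p = 0.167) and Mef2d (-0.07 ± 0.09, adjusted p = 0.642) with the block differed from PBS by less than Mef2c did, though the difference between paralogs was not tested.

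Of 5 tested bHLH genes related to or paired with Tcf21, 0 passed without the block. With it Tcf4 fell (-0.41 ± 0.06, limma adjusted p = 0.000181), and Tcf3 (0.55 ± 0.10, adjusted p = 0.00125) and Twist1 (0.29 ± 0.09, adjusted p = 0.0480) rose with both agonists, where 10.4% of all genes fell and 9.1% rose. Of 11 genes of modulated smooth muscle cells, Cd44, a hyaluronan receptor, rose (0.89 ± 0.20, adjusted p = 0.0275) and Myh10, a nonmuscle myosin, fell (-0.52 ± 0.12, adjusted p = 0.0287) with both agonists without the block. With it 2 of the 11 rose and 4 fell, beside 9.1% and 10.4% of all genes. Lists of other cell types had 0 of 16 endothelial, 0 of 7 fibroblast, 0 of 6 macrophage and 0 of 2 lymphocyte genes called with both agonists without the block. With it 1 endothelial gene rose and 1 fell, 2 fibroblast genes rose and 1 fell, and 0 macrophage and lymphocyte genes were called. Of all genes, 9.1% rose and 10.4% fell in that fit. The endothelial median in that comparison was -0.87 without the block and -0.05 with it.

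The genes whose 24 h pattern was most like that of a member were named by Pearson correlation of log2 signals over the 15 arrays, which share numbers and groups. For Mef2c they were Col15a1 (0.95), Ptprd (0.95) and Tspan5 (0.95), and after the mean of each number was removed Cst3 (0.98), Kazald1 (0.97) and B4galt6 (0.97). For Klf2 they were Ramp2 (0.93), Mast4 (0.92) and Gata2 (0.90). For Myocd they were Rbpms (0.98), Abcc9 (0.97) and Uchl1 (0.96). For Gata6 they were Sulf1 (0.97), Klf12 (0.95) and Mansc1 (0.94), and for Klf4 Serpinb9b (0.98), Svip (0.96) and Rras2 (0.96). For Srf they were Polr2g (0.89), Mertk (0.89) and Smad6 (0.88). Klf5 was most like Homer2 (0.88), and Tcf21 most like Pex7 (0.93). Apart from the Mef2c values with the mean of each number removed, these values include the differences between numbers. With the mean of each number removed, other genes were most like each member. The first were Smg6 for Klf2 (0.93), Med13 for Myocd (0.92), Ap1ar for Gata6 (0.87) and Synj2bp for Klf4 (0.88). For Srf it was Copz2 (0.91), for Klf5 Gpkow (0.89) and for Tcf21 Stard10 (0.93). No member was among the genes most like another member.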

How the data were processed

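Total RNA from 21 samples was read on Affymetrix mouse arrays of 45101 probe sets. Per the submitters' processing notes the authors used GCOS 1.4, and the deposited values are linear signal intensities. On each array the mean is the same after 2% of probe sets at each end are removed. How probes were summarized and corrected for background, and whether absent probe sets were removed, is not given in the sources used here. Gene names come from GEO's platform annotation: 34945 probe sets have 1 symbol, 932 several and 9160 none, beside 64 control probe sets. The number of arrays limits the precision, and array medians ran from 106.8 to 139.

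Values were taken as log2(signal + 10.2), 10.2 being the 10th percentile at 24 h, so changes of low genes are understated. Genes passed if above the median of their own array on at least 3 of 15 arrays at 24 h, and the probe set with the highest mean stood for a gene, leaving 12446. All members had a tested probe set, and 17 of their 20 probe sets passed. limma 3.58.1 in R 4.3.3 fitted the 15 arrays of 4 groups together with a variance trend (11 residual degrees of freedom, 8 with the number as a block) and 7 comparisons, each with Benjamini-Hochberg adjustment over all genes and a call at an adjusted p under 0.05. The script was tested on simulated data. Tests are two-sided.

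The numbers come from the sample titles, which do not say what they stand for. With group means removed, the 21 pairs of arrays of the same number correlated at 0.46 to 0.81, the 63 other pairs at -0.58 to 0.22, and 15 of 15 arrays correlated best with their own number. The number was therefore used as a block beside the fit without it.

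All probe sets of the members are given. From each other list the called genes are named, at most 4 a list and comparison by adjusted p, or the 2 largest changes where none was called, and the 3 most correlated genes for likeness. Members and lists were chosen with earlier results of these data known. Alternatives were other pseudocounts, filters, scalings and variance models, all probe sets in 1 fit, and arrays left out; those combined with the block, other than equal medians and the arrays numbered 0 left out, were added after seeing the data.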

Additional observations from a re-analysis of the deposited data

Results flagged for a closer look

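Of 60 groups of 4 arrays formed by the member probe sets at 24 h, 2 had 1 array far from the other 3, and chance alone flags about 1 in 20. The Srf probe set 1418256_at read 287.6 on the TNF array numbered 1, while the other TNF arrays lay between 354 and 356.6. The Gata6 probe set 1425463_at read 1584.3 on the TNF array numbered 0, while the other TNF arrays lay between 807 and 930.9. The arrays numbered 0 also had the highest value of this probe set with PBS (1434) and anti-LTBR (1596).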

How the results depend on the processing

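Without the block, other pseudocounts, filters, scalings, variance models, all probe sets in 1 fit and leaving out arrays kept the count of member genes called at 0 in all 7 comparisons. The replicate block gave 1 with anti-LTBR, 1 with TNF and 2 with both agonists against PBS, 2 for both agonists against TNF and 1 against anti-LTBR. In the same order it called 4.76%, 5.94%, 19.5%, 6.77% and 5.63% of all genes. With the block and arrays scaled to equal medians the counts were 0 with anti-LTBR, 1 with TNF, 1 with both agonists, 1 against TNF and 1 against anti-LTBR. Of all 12446 genes, that fit called 412 higher and 61 lower with anti-LTBR, and 345 and 141 with TNF. With both agonists it called 924 higher and 861 lower against PBS, 242 and 253 against TNF, and 200 and 347 against anti-LTBR. With the block and the arrays numbered 0 left out the member counts were 0, 2, 2, 2 and 1 in the same order, Klf4 joining Mef2c with TNF. The share of all genes called in that fit is not given here. The block turned the change of Klf4 between both agonists and TNF from 0.06 to -0.21, and to -0.24 (limma adjusted p = 0.0300) with the arrays numbered 0 left out.

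Further alternatives to the fit with the block were added after seeing the data. Without the variance trend the anti-LTBR count was 0. For both agonists against TNF the count was 1 under no filter, median scaling, quantile normalization, no variance trend and all probe sets in 1 fit, with Mef2c as the gene called each time. Leaving out each array in turn gave 0 to 1 genes with anti-LTBR, 1 to 2 with TNF, 1 to 2 with both agonists and 0 to 2 for both agonists against TNF. The share of all genes called in each of these fits is not given here. Mef2c with both agonists ranged from -0.75 to -0.88 over these, and without the arrays numbered 0 it was -0.84, with TNF -0.51. With the block, the split of all genes called with anti-LTBR was 317 higher and 275 lower, and 412 and 61 with equal medians. With TNF it was 381 and 358, and 345 and 141 with equal medians. Without the block, all genes called numbered 16 with anti-LTBR, 42 with TNF and 306 with both agonists. Over the alternatives without the block they ranged from 1 (only the groups compared in the fit) to 32 (all probe sets), from 15 to 62 and from 166 (without the both-agonist array numbered 1) to 454. With the block they numbered 592, 739 and 2422. The cause of these shifts was not tested. Low signal limits Myocd, Tcf21 and Klf5, whose changes are not detectable at this precision unless large.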
